A study of Mus musculus with 9 samples.

Results

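The comparison described here set MLO-Y4 cells held for 48 h beside interleukin-1β (IL-1β)-stimulated chondrocytes against the same cells at 24 h. Its members were 6 of the 9 RNA-seq libraries of the series, chosen by their labels, with 3 libraries at each time. MLO-Y4 is an immortalised mouse line with osteocyte-like features, derived from mice carrying large T antigen under the osteocalcin promoter, and it was grown here on collagen-coated wells. Primary articular chondrocytes from C57BL/6J mice aged 5–6 days were placed on inserts with 1.0 µm pores, received 10 ng/mL IL-1β for 6 h, and were then set above the MLO-Y4 cells for 24 or 48 h. The 3 control libraries came from MLO-Y4 cells cultured with chondrocytes that had received no IL-1β. They entered no test between the 2 times and gave the level from which each change started. The labels give no culture time for the controls and hold no unstimulated co-culture at 24 and 48 h, so duration of exposure and time in culture cannot be told apart. The labels also name the line of the 48 h libraries MLO-Y5, MLO-Y6 and MLO-Y7 while the protocols name MLO-Y4 throughout, so a difference of line cannot be told apart from time either. Nothing in the labels says that the libraries of a group came from separate cultures, and p-values therefore measure the spread between these libraries. In bulk RNA, fewer cells of a kind and less RNA per cell cannot be told apart.

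Osteocytes are long-lived cells embedded in bone that signal to osteoclasts through RANKL, the product of Tnfsf11, and to neighbouring tissue through cytokines and prostaglandins. IL-1β and the mediators released by stimulated chondrocytes act largely through NF-κB, which induces chemokines together with its own inhibitors, and through IL-6 family cytokines, which activate STAT3. Interferon and hypoxia responses, matrix turnover and the cell cycle are further programmes that change when such signals last.

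The libraries held 14440454 to 15558585 counted reads at 24 h and 16458398 to 18515456 at 48 h, against 12250628 to 15956441 in the controls. Of 56748 annotated genes, 13598 passed the filter on low counts and were tested. A first principal component with 77% of the variance separated the times, and the root mean square log2 distance between libraries was 0.184 to 0.216 within a time and 0.438 to 0.455 between times. The osteocyte markers Mepe and Fgf23 and the mineralised-matrix gene Ibsp had 0 reads in all 9 libraries, Sost had at most 1 read and Dmp1 at most 6, whereas Phex, Pdpn, Gja1, Cd44 and Capg were expressed. The cartilage genes Acan, Col9a1, Col9a2, Matn1 and Cnmd were at 0 in every library and Col2a1 had at most 7 reads. Other cartilage markers were present, with 1379 to 2239 reads per library for Sox9, 20 to 60 for Matn3, 15 to 39 for Col11a2 and 6 to 32 for Col10a1. Comp, Col9a3 and Hapln1 had at most 21, 11 and 8 reads. The macrophage genes Adgre1, Itgam, Aif1 and Tyrobp were at 0 and Ptprc had at most 1 read. Csf1r had 23 to 61 reads per library, Cd68 26 to 61 and Lyz2 3 to 11, and Spi1 had at most 3.

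Between 24 h and 48 h, 7428 genes (54.6% of those tested) passed an adjusted p of 0.05, 3617 of them higher at 48 h (26.6%) and 3811 lower (28%). Adjusted p-values throughout are from edgeR's quasi-likelihood test with Benjamini-Hochberg adjustment over all genes tested, and differences are log2 fold changes given with their standard error (SE). Levels are CPM, the reads of a gene scaled to the effective library size. Most of the changes were small, with a median absolute log2 fold change of 0.41 among called genes and 4536 of them under 0.5. At an absolute log2 fold change of at least 1, 597 genes were higher (4.39%) and 198 lower (1.46%), so large changes leaned upward although the counts of calls were nearly balanced. Long non-coding RNAs were called higher 252 times and lower 50 times, and protein-coding genes 3265 and 3618 times.

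Among protein-coding genes with a mean of at least 5 CPM at either time and no overlap between the libraries of the 2 times, the largest rise belonged to Gm12248, a gene model with no assigned name, at 1.07, 0.975 and 0.987 CPM at 24 h and 33.04, 37.8 and 29.01 CPM at 48 h, a log2 fold change of 5.03 ± 0.16 (adjusted p = 5.88e-17). Adamts15, a secreted proteoglycan-cleaving proteinase, followed with 0.867, 1.17 and 0.352 CPM against 11.4, 11.4 and 10.7 CPM (log2 fold change 3.78 ± 0.23, adjusted p = 3.40e-12). The other genes with the largest rises were Fabp4, a fatty-acid carrier (3.37), Clu, the extracellular chaperone clusterin (3.36), Vtn, the adhesion protein vitronectin (3.08), Fgl2, a secreted fibrinogen-like protein (2.81), Kng2, a kininogen (2.75), the hypoxia-inducible Car9 (2.73) and Ndufa4l2 (2.70), and Epm2a, the glycogen phosphatase laforin (2.64). All 10 were between 0.797 and 4.98 CPM on average at 24 h. The gene for Ndufa4l2 overlaps that for Shmt2 on the opposite strand, which went the other way (-0.85), and the strand setting of the counting is not given in the sources used here.

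By the same rule the largest fall was that of Ltbp2, a latent TGF-β binding protein of the matrix, from 92.5, 80.6 and 97.8 CPM at 24 h to 11.2, 11.9 and 11.9 CPM at 48 h (log2 fold change -2.95 ± 0.08, adjusted p = 3.97e-18). Next came Cxcl1 (-2.26), the acyl-CoA synthetase Acsbg1 (-2.24), the BMP-responsive inhibitor of differentiation Id1 (-2.09), the netrin receptor Unc5b (-1.999), the procollagen proteinase enhancer Pcolce2 (-1.98), Cxcl3 (-1.89), the cytokine Lif (-1.84) and Cgref1 (-1.84). These genes were between 17.8 and 93.5 CPM on average at 24 h. The rule asks for a minimum mean level at either time. Falling genes had to meet it at 24 h and rising genes at 48 h. The difference in 24 h level between the largest rises and the largest falls therefore follows in part from the rule.

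**Figure D1:**
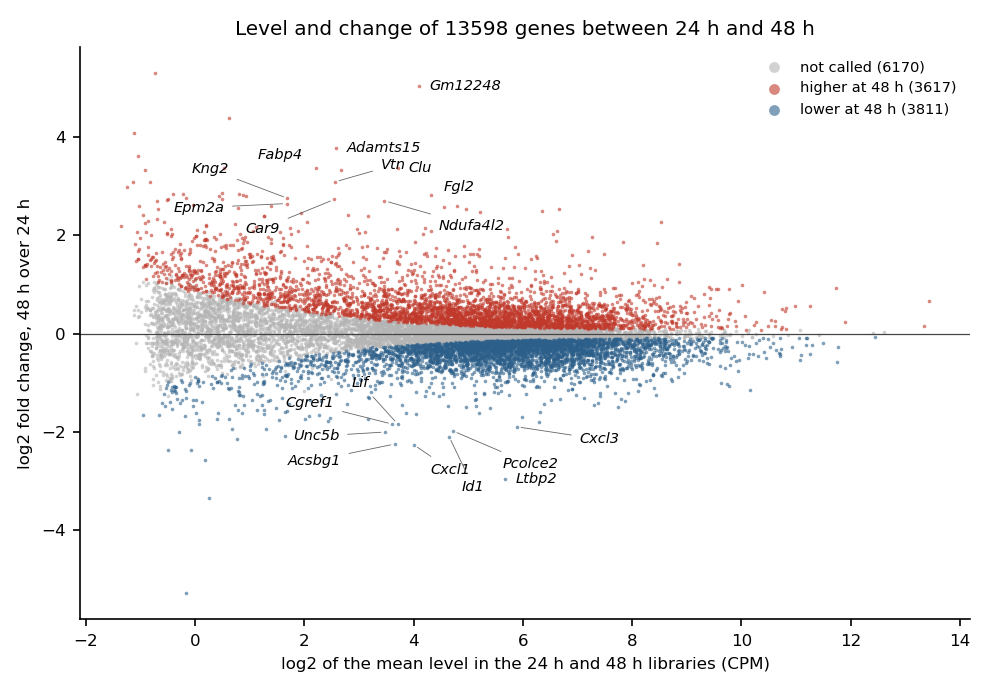
Each point is one of the 13598 tested genes, with its mean level at 24 h and 48 h (log2 CPM) on the x axis and its log2 fold change at 48 h over 24 h on the y axis. Coloured points passed an adjusted p of 0.05 (3617 higher, 3811 lower), and the labelled genes are the genes the text names for the largest rises and falls, from Ltbp2 at -2.95 to Gm12248 at 5.03.

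Setting the 2 times against control sorted the genes by when they moved. At 24 h, 849 of 13812 tested genes were called against control (6.15%), 449 higher (3.25%) and 400 lower (2.9%). At 48 h 6408 were called (46.4%), 3039 higher (22%) and 3369 lower (24.4%). Of the 449 genes higher at 24 h, 210 then fell, 137 rose further and 102 were not called between the times. Of the 398 lower at 24 h that both fits tested, 315 then rose, 30 fell further and 53 were not called. The 24 h libraries enter the 24 h and the 48 h versus 24 h comparisons with opposite sign, and the controls enter both control comparisons, so these counts are descriptions and carry no test.

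Time classes were formed from the calls. Transient genes were called from control at 24 h, called the other way between the times and not called against control at 48 h (100 first higher, 138 first lower). The missing call at 48 h does not show a return to the control level. Waning genes returned only in part (40 and 17). Reversed genes crossed control, from higher to lower in 70 cases and from lower to higher in 160. Sustained genes were called from control in one direction at both times and not between them (96 and 44), and progressive genes moved on in the first direction (137 and 30). A further 6 genes first higher and 9 first lower were called only at 24 h against control and stand in no class. Late genes were not called at 24 h and were called in the same direction both between the times and against control at 48 h, 2267 up and 2815 down. A further 893 genes higher and 755 lower at 48 h than at 24 h were called against control at neither time and stand in no class. The late classes thus held most of the genes that differed between the times.

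Class sizes that rest on the 24 h call moved by more than 1.5 times with single libraries. Leaving out control replicate 3 gave 873 genes higher and 602 lower at 24 h, leaving out 24 h replicate 3 gave 295 and 223, and leaving out 24 h replicate 1 gave 222 lower genes. Transient genes then numbered 217 and 209 (control replicate 3), 62 and 70 (24 h replicate 1) or 60 and 71 (24 h replicate 3). Reversed genes numbered 43 and 106 without control replicate 1, and 107 of the first direction without control replicate 3. Without 24 h replicate 1 they numbered 32 and 101, and without 24 h replicate 3 they numbered 34 and 95. Sustained genes rose to 234 and 97 without control replicate 3, and the 44 first lower became 26 without 24 h replicate 1. Progressive genes rose to 224 and 57 without control replicate 3, and the 30 first lower became 12, 15 and 10 without 24 h replicate 1, 2 and 3. Waning genes first lower numbered 10, 11, 7, 10 and 10 without control replicate 1, control replicate 2, and 48 h replicates 1, 2 and 3. Genes that kept their class whichever of the 9 libraries was left out made up 34 of 100 and 37 of 138 transient, 24 of 40 and 4 of 17 waning, 20 of 70 and 64 of 160 reversed, 29 of 96 and 9 of 44 sustained, 80 of 137 and 7 of 30 progressive, and 1439 of 2267 and 1965 of 2815 late genes. The counts between 48 h and 24 h moved by less than 1.5 times whichever library was left out, from 3294 to 3381 higher and from 3471 to 3657 lower.

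**Figure D2:**
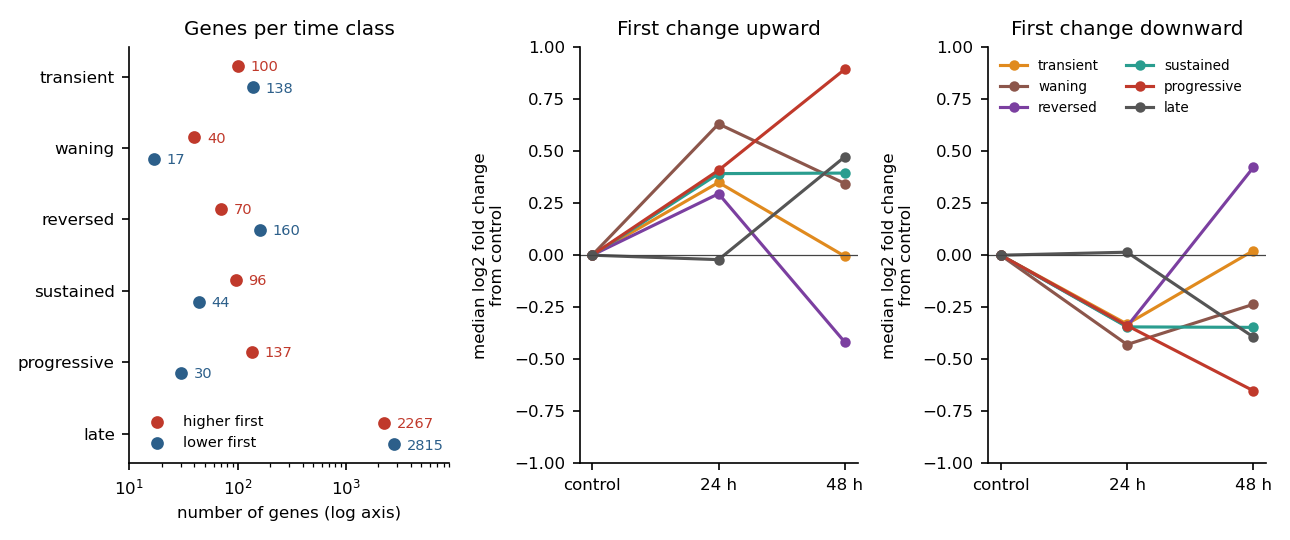
The left panel gives the number of genes in each time class (log axis), split by the direction of the first change, and the other panels give the class medians of the log2 fold change from control at 24 h and 48 h. Late genes (2267 up, 2815 down) outnumber all others, and the reversed classes cross the control level, with medians of 0.30 then -0.42 for the 70 genes first higher and -0.34 then 0.42 for the 160 first lower.

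The clearest transient genes were neutrophil-attracting chemokines. Cxcl1 was at 6.52, 5.23 and 5.79 CPM in the controls, 28.3, 21.5 and 30.02 CPM at 24 h and 5.42, 5.27 and 5.87 CPM at 48 h. Its 24 h libraries stood above all others, and the 48 h libraries lay among the controls. It rose at 24 h (2.17 ± 0.14, adjusted p = 6.16e-09) and fell between the times (-2.26 ± 0.12, adjusted p = 7.45e-13), and its value at 48 h against control was -0.09 (adjusted p = 0.672). Cxcl3, a chemokine of the same cluster, went from 26.1, 24.3 and 22.995 CPM in the controls to 98.8, 81.2 and 101 CPM and then 25.3, 23.8 and 26.2 CPM. It fell by 1.89 ± 0.07 between the times (adjusted p = 1.82e-15). Cxcl5, also of this group, waned without reaching control, with 30.5, 31.04 and 33.1 CPM in the controls, 255, 215 and 251 CPM at 24 h and 91.2, 97.03 and 82.3 CPM at 48 h (-1.41 ± 0.06, adjusted p = 1.50e-14). The 3 groups of Cxcl5 libraries did not overlap. Those of 24 h and 48 h do not in 60% of all genes, and the share with all 3 groups apart was not counted.

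Promoters of these chemokines carry NF-κB-type letters close to the start, and those of the 2 transient members are shown with every match to GGG, any 2 bases, then TTTCC, on either strand, in capitals. They are the 250 bases before the Ensembl-canonical start of GENCODE M39, read from GRCm39 on the strand of the gene.
Cxcl1 (chr5:91038844-91039093, plus strand): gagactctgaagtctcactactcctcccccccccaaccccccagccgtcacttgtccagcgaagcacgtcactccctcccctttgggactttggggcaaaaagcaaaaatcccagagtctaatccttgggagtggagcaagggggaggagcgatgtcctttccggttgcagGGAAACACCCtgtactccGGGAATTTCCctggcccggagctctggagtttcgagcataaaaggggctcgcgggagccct
Cxcl3 (chr5:90933712-90933961, plus strand): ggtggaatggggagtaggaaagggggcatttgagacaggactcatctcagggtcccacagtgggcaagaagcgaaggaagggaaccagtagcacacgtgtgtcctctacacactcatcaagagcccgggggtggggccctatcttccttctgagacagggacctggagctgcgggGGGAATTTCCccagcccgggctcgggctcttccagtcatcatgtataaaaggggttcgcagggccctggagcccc
Cxcl1 held 2 matches, starting 79 and 61 bases before the start, and Cxcl3 held 1 at 75 bases. The motif stood in 54.5% of the promoters of the 11 tested chemokine-list genes and in 1.45% of 11685 promoters of tested protein-coding genes. A match is a run of letters and not a measured site.

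The chemokine list did not move as one. Of its 11 tested members, 4 were called higher at 48 h than at 24 h and 6 lower, with a median log2 fold change of -0.17 against 0.00044 over all genes tested. For this and every list below, the shares over all genes were 26.6% higher and 28% lower between the times. At 24 h against control they were 3.25% higher and 2.9% lower, and at 48 h 22% and 24.4%. Ccl2, a monocyte chemoattractant, went from 22.9, 20.6 and 24.8 CPM to 9.76, 10.8 and 9.44 CPM and ended below the controls at 17.4, 18.05 and 16.1 CPM (-1.19 ± 0.10, adjusted p = 9.66e-10). Its call at 24 h against control (adjusted p = 0.0138) was lost without 24 h replicate 1 (adjusted p = 0.0568) and without 24 h replicate 3 (adjusted p = 0.0917). Its neighbour Ccl7 was not called at 24 h and then fell by 1.01 ± 0.08 (adjusted p = 1.49e-10). Ccl9 did the opposite of Ccl2, at 28.7, 24.6 and 22.4 CPM in the controls, 14.3, 16.7 and 15.9 CPM at 24 h and 37.5, 38.97 and 36.2 CPM at 48 h (1.26 ± 0.08, adjusted p = 6.26e-12). Ccl5, which attracts T cells, rose at both steps, from 7.59, 6.697 and 7.29 CPM to 10.3, 10.2 and 12.5 CPM and 17.9, 19.9 and 22.3 CPM (0.87 ± 0.11, adjusted p = 4.21e-07). Cxcl2 did not pass the filter on low counts.

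Lif and Htr2a also led the transient class. Lif, an IL-6 family cytokine, stood at 7.59, 7.19 and 7.44 CPM in the controls, 20.002, 16.8 and 24.6 CPM at 24 h and 6.05, 5.03 and 5.97 CPM at 48 h (-1.84 ± 0.13, adjusted p = 8.63e-11). It sat at the edge of the reversed class, with a 48 h value of -0.38 against control (adjusted p = 0.0508) that was called without 24 h replicate 2 (adjusted p = 0.0366) or 24 h replicate 3 (adjusted p = 0.0339). Htr2a, a serotonin receptor, had 19.002, 14.6 and 14.6 CPM at 24 h and 7.02, 7.54 and 9.06 CPM at 48 h, against 6.27, 6.697 and 6.16 CPM in the controls (-1.02 ± 0.13, adjusted p = 4.10e-07). Vcam1, an adhesion molecule induced by NF-κB, fell by 0.60 ± 0.11 to 12.7 ± 1.56 CPM (SD, n = 3), where its control level was 12.8 ± 0.8403 CPM. Ptges, the prostaglandin E synthase, fell by 0.47 ± 0.05 and Ldha, lactate dehydrogenase, by 0.27 ± 0.03 (adjusted p = 1.03e-07 and 4.78e-08), both from a 24 h level above control.

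Waning genes kept part of their early rise. Saa3, an acute-phase protein, was at 1.69, 2.53 and 2.56 CPM in the controls, 107, 79.7 and 119.5 CPM at 24 h and 68.5, 79.2 and 67.6 CPM at 48 h. It fell by 0.50 ± 0.09 between the times (adjusted p = 7.93e-05) and stayed 5.01 ± 0.18 above control on the log2 scale. The alarmin Il33 (20.5, 17.9 and 21.6 CPM, then 10.1, 11.6 and 12.4 CPM), the pentraxin Ptx3 (-0.78) and the proteinase inhibitor Slpi (-0.78) also fell by part of their rise (adjusted p = 6.63e-07, 1.17e-06 and 2.54e-09). Among the early NF-κB genes, Zc3h12a, an RNase that degrades cytokine transcripts (-0.67), Ier3 (-0.34) and the mitochondrial dismutase Sod2 (-0.27) belonged here.

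The NF-κB list as a whole split, with 7 of 24 tested members higher at 48 h and 9 lower (26.6% and 28% of all genes) and a median of -0.05. At 24 h against control 10 had been called higher and none lower (3.25% and 2.9% of all genes). At 48 h against control 13 were higher and 2 lower (22% and 24.4% of all genes). Nfkbiz, a nuclear IκB protein, and Bcl3, its relative, rose at both steps, Bcl3 from 26.4, 25.8 and 22.7 CPM to 46.9, 41.3 and 45.1 CPM and 81.3, 76.3 and 81.8 CPM (0.85 ± 0.06, adjusted p = 2.56e-11), and Nfkbiz by a further 0.29 ± 0.05 (adjusted p = 4.57e-05). The deubiquitinase Tnfaip3 rose late (0.55 ± 0.10, adjusted p = 4.54e-05). Nfkbia, which encodes IκBα, was sustained, with 49.9, 47.5 and 53.3 CPM and 48.7, 49.1 and 46.4 CPM at the 2 times, a difference of -0.06 ± 0.06 (adjusted p = 0.403).

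**Figure D3:**
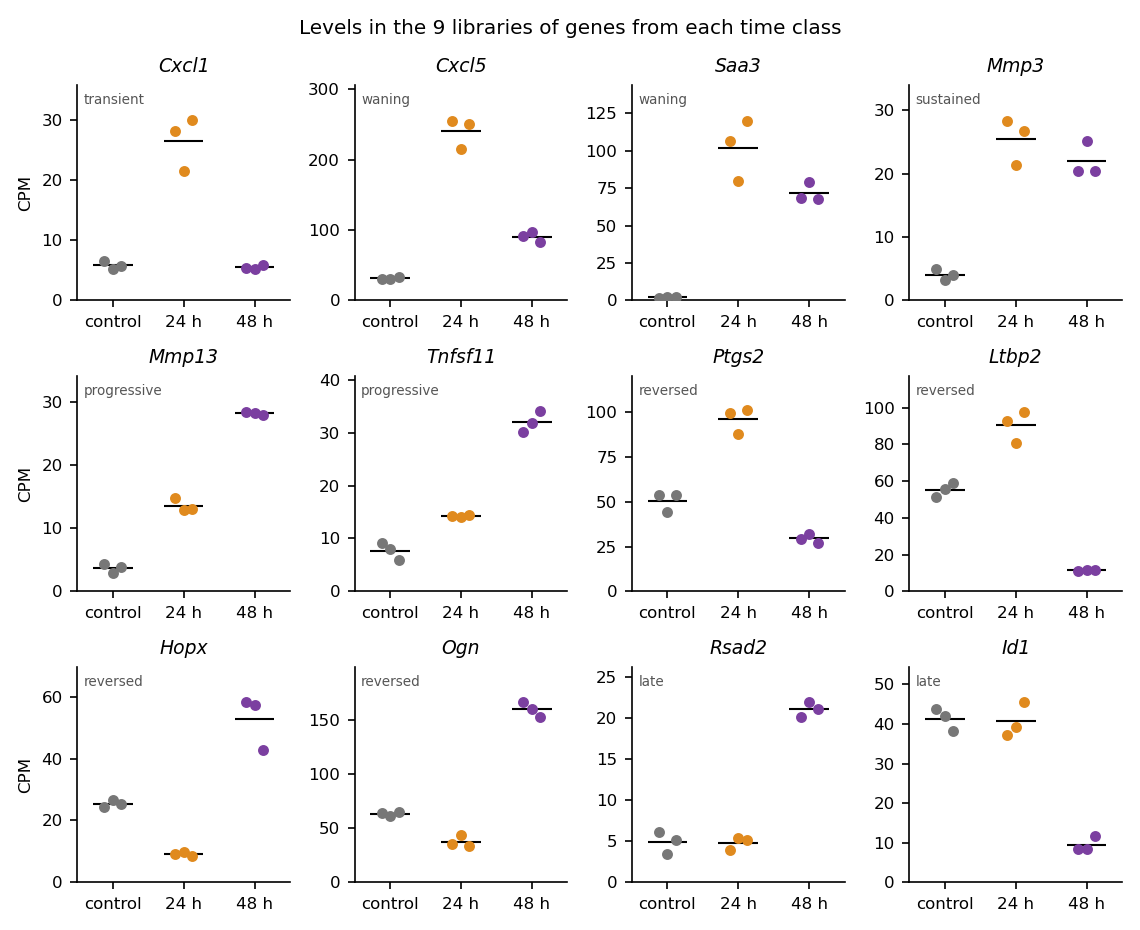
Levels in CPM (linear axis from 0) of 12 genes, 1 point for each of the 9 libraries and a line at each group's mean, in columns for control, 24 h and 48 h. Cxcl1 peaks at 24 h and lies among the controls at 48 h, Cxcl5 and Saa3 keep part of their rise, Ptgs2 and Ltbp2 pass from above to below control, Hopx and Ogn do the reverse, and Rsad2 and Id1 leave control at 48 h.

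Genes that reversed from higher to lower included matrix and prostaglandin genes. Ltbp2 had 51.2, 55.9 and 59.2 CPM in the controls, below its 24 h libraries and above its 48 h libraries given above (0.71 ± 0.07 at 24 h and -2.24 ± 0.09 at 48 h against control). Ptgs2, the inducible cyclooxygenase, was at 53.9, 44.2 and 53.9 CPM in the controls, 99.5, 87.8 and 101 CPM at 24 h and 29.4, 32.02 and 27.3 CPM at 48 h. It fell by 1.70 ± 0.07 between the times (adjusted p = 1.80e-15). Its 3 groups of libraries did not overlap. Those of 24 h and 48 h do not in 60% of all genes, and the share with all 3 groups apart was not counted. Ramp3, a receptor-activity-modifying protein, went from 27.5, 20.03 and 27.9 CPM to 8.16, 7.303 and 8.58 CPM with controls at 12.4, 11.9 and 12.8 CPM (-1.64 ± 0.12, adjusted p = 1.01e-10). Kcnk10, a potassium channel, fell by 1.72 ± 0.17 (adjusted p = 1.16e-08), from 8.53 ± 0.5701 to 2.596 ± 0.3099 CPM (SD, n = 3) with controls at 4.54 ± 0.149 CPM. Il11 fell by 1.43 ± 0.17 (adjusted p = 1.83e-07), but its call below control at 48 h was lost without control replicate 1 (adjusted p = 0.0777), control replicate 3 (adjusted p = 0.106) or 48 h replicate 1 (adjusted p = 0.147).

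TGF-β, BMP and YAP target genes fell together after 24 h. Of 29 tested, 20 were lower at 48 h than at 24 h and 5 higher (28% and 26.6% of all genes), with a median of -0.49. At 24 h against control 7 had been higher and 1 lower (3.25% and 2.9% of all genes). The matricellular YAP target Ccn1 went from 127, 118 and 121 CPM to 44.9, 45.8 and 44.7 CPM, below controls at 109, 102 and 99.9 CPM (-1.43 ± 0.05, adjusted p = 4.22e-16). It passed from above to below the controls, although its 24 h call was lost without 24 h replicate 1 (adjusted p = 0.0992). Inhba, the activin A subunit (-0.84), and Id3 (-0.92) also fell between the times. Id1 was not called at 24 h and then dropped, with 43.8, 42.1 and 38.1, 37.2, 39.3 and 45.5 and 8.39, 8.38 and 11.6 CPM in the controls, at 24 h and at 48 h (-2.09 ± 0.11, adjusted p = 2.72e-13). The inhibitory Smad7 (-1.47), Id2 (-0.93), Ccn2 (-0.53) and the contractile genes Myl9 (-1.75) and Acta2 (-1.84, from a mean of only 1.65 CPM at 24 h) fell as well. Against the list, the ligand Tgfb2 had been lower at 24 h (7.33, 7.41 and 6.41 CPM against 10.97, 9.72 and 11.5 CPM in the controls) and then rose to 28.4, 28.2 and 29.6 CPM (2.03 ± 0.09, adjusted p = 5.39e-14), and the BMP antagonist Grem1 rose at both steps (0.20 between the times).

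Timp1, the tissue inhibitor of metalloproteinases, belonged to the same class, at 214, 226 and 204 CPM in the controls, 319, 302 and 325 CPM at 24 h and 113, 110.5 and 115 CPM at 48 h. It fell by 1.48 ± 0.04 (adjusted p = 2.01e-17), and the 48 h libraries lay below every control.

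Genes first lower and then above control formed the larger reversed class. Hopx, a small homeodomain protein, was at 24.2, 26.6 and 25.2 CPM in the controls, 9.13, 9.69 and 8.39 CPM at 24 h and 58.1, 57.3 and 42.8 CPM at 48 h (2.54 ± 0.11, adjusted p = 1.34e-14). Ggt5, a γ-glutamyl transferase that acts on leukotriene C4, went from 6.33, 7.02 and 6.77 CPM to 44.2, 38.4 and 37.97 CPM with controls at 12.7, 13.5 and 11.1 CPM (2.58 ± 0.10, adjusted p = 7.35e-16). Susd2, a membrane protein, rose from 11.4 ± 0.577 to 63.02 ± 4.61 CPM (SD, n = 3; 2.47 ± 0.08, adjusted p = 6.78e-17), and the hyaluronan-binding Itih5 from 1.42 ± 0.386 to 6.87 ± 0.869 CPM (2.27 ± 0.22, adjusted p = 7.95e-09). In each of the 4 genes the 24 h libraries were the lowest and the 48 h libraries the highest. They were picked for large changes in both directions, and 24 h and 48 h libraries do not overlap in 60% of all genes. The share with all 3 groups apart in this order was not counted. Fgl2 would join them (-0.62 at 24 h, 2.19 at 48 h against control), but its 24 h call was lost without 24 h replicate 1 (adjusted p = 0.0868), 24 h replicate 3 (adjusted p = 0.106) or control replicate 1 (adjusted p = 0.144). Enpp2, which encodes autotaxin, the enzyme that makes lysophosphatidic acid, had the smallest adjusted p of the named genes and was chosen after its values were seen. It was at 210.4, 181 and 188 CPM in the controls, 123, 138 and 119.5 CPM at 24 h and 606, 627 and 600.1 CPM at 48 h (2.27 ± 0.05, adjusted p = 1.97e-19).

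Ogn, the leucine-rich proteoglycan osteoglycin, had 63.7, 61.2 and 65.5 CPM in the controls, 35.7, 43.8 and 33.97 CPM at 24 h and 167, 161 and 153 CPM at 48 h (2.08 ± 0.07, adjusted p = 1.19e-16). Efemp1, fibulin 3, rose in the same interval from 300.1 ± 10.7 to 623 ± 21.01 CPM (SD, n = 3; 1.06 ± 0.04). The antioxidant enzymes Gpx3 (1.37) and Gstm1 (1.02) and the stress-response gene Sesn1 (1.28) also crossed control upward.

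Transient genes first lower than control were led by Plxdc1, Spon2, Ppp1r1b and Gpnmb. Gpnmb, a transmembrane glycoprotein of late endosomes, was at 130.3, 113 and 104 CPM in the controls, 60.6, 66.3 and 53.8 CPM at 24 h and 103, 112 and 100.3 CPM at 48 h (0.80 ± 0.06, adjusted p = 2.83e-10). Without control replicate 3 its 48 h level was called below control (-0.21, adjusted p = 0.0287). Plxdc1, a plexin-domain receptor, rose by 1.38 ± 0.12 between the times, Spon2, a secreted spondin, by 1.06 ± 0.09 and Ppp1r1b, a phosphatase inhibitor, by 0.88 ± 0.16 (adjusted p = 1.30e-09, 1.24e-09 and 8.71e-05). Plxdc1 was called above control at 48 h without 48 h replicate 3 (adjusted p = 0.0441) or control replicate 2 (adjusted p = 0.0266), and Spon2 without 24 h replicate 2 (adjusted p = 0.0389). First lower and then partly back, in the small waning class, were Plin4, a lipid droplet protein (-0.85 at 24 h and -0.42 at 48 h against control), Aqp5, a water channel (-0.66 and -0.32), Wnt2b (-0.83 and -0.37) and Ccdc74a (-0.63 and -0.29). The 48 h call of Wnt2b was lost without 48 h replicate 1 or 2 (adjusted p = 0.0538 and 0.0657) or control replicate 1 or 3 (adjusted p = 0.0605 and 0.0867). That of Ccdc74a was lost without 48 h replicate 1 (adjusted p = 0.121) or control replicate 1 (adjusted p = 0.0683), and its rise between the times without 24 h replicate 2 (adjusted p = 0.0559) or 48 h replicate 3 (adjusted p = 0.05496).

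Lysosomal genes dipped at 24 h and rose afterwards. Of 43 tested lysosome and autophagy genes, 31 were higher at 48 h than at 24 h and 4 lower (26.6% and 28% of all genes), with a median of 0.34. At 24 h against control 16 had been lower and 1 higher, and at 48 h 22 were higher and 3 lower. Psap, the prosaposin precursor of sphingolipid activators, had 2288, 2317 and 2233 CPM in the controls, 1904, 2054 and 1969 CPM at 24 h and 2870.4, 2990.5 and 2862 CPM at 48 h (0.56 ± 0.03, adjusted p = 8.17e-13). The cathepsins Ctsb (0.51) and Ctsa (0.68) and the lysosomal calcium channel Mcoln1 (0.65) also rose between the times. Gla, α-galactosidase A, had 65.2, 67.6 and 60.6, 49.4, 56.4 and 53.1 and 70.1, 71.9 and 66.2 CPM in the controls, at 24 h and at 48 h (0.39 ± 0.06, adjusted p = 5.84e-06), and its 24 h call below control was lost without 24 h replicate 1 (adjusted p = 0.114), 24 h replicate 3 (adjusted p = 0.0575) or control replicate 1 (adjusted p = 0.05803). The autophagy receptor Sqstm1 was lower than control at both times and differed between them by 0.02 ± 0.04 (adjusted p = 0.589).

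The promoter of Gla is shown because it holds several copies of the letters TCACGTG, the E-box with the flank common in lysosomal genes, in capitals on either strand and partly overlapping (GRCm39, 250 bases before the start).
Gla (chrX:133501905-133502154, minus strand): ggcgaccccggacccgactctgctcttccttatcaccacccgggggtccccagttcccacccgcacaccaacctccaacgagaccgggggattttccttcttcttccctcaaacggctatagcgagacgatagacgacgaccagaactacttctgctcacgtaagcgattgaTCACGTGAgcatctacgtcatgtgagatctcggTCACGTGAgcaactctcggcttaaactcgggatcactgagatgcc
Its 4 matches lay from 78 to 44 bases before the start. The letters stood in 18.6% of the 43 lysosome and autophagy promoters, in 16.7% of the 18 circadian promoters and in 4.22% of all 11685.

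Sustained genes had no call between the times, which does not show equal levels. Mmp3, stromelysin 1, was at 4.89, 3.19 and 3.98 CPM in the controls, 28.3, 21.3 and 26.8 CPM at 24 h and 20.4, 25.1 and 20.4 CPM at 48 h, a difference between the times of -0.21 ± 0.10 (adjusted p = 0.0769). A fall between the times was called without 24 h replicate 2 (adjusted p = 0.00547) or 48 h replicate 2 (adjusted p = 0.0141). Lcn2, the siderophore-binding lipocalin 2, went from 0.125, 0.163 and 0.225 CPM to 6.07, 3.77 and 6.34 CPM and 2.62, 4.85 and 3.79 CPM, with -0.52 ± 0.22 between the times (adjusted p = 0.0524, and 0.00679 and 0.0136 without the same 2 libraries in turn). Nos2, the inducible nitric oxide synthase, had no read in the controls, 2.87, 2.08 and 4.299 CPM at 24 h and 4.17, 4.79 and 4.32 CPM at 48 h, with an adjusted p of 0.0506 between the times that became 0.00456 without 24 h replicate 3. Il6 stood at 3.13, 2.34 and 3.31 CPM and 2.28, 1.92 and 2.56 CPM, against 0.627, 0.327 and 0.827 CPM in the controls (-0.37 ± 0.24, adjusted p = 0.196). Cemip, a hyaluronan-degrading factor, had a difference of 0.18 ± 0.12 and Dgat2, a triglyceride synthase, of -0.01 ± 0.12 (adjusted p = 0.214 and 0.967).

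Among genes that stayed low were Ank, the pyrophosphate transporter that restrains mineralisation, at 217, 205 and 217 CPM in the controls, 136, 138 and 123 CPM at 24 h and 133, 127 and 133 CPM at 48 h (-0.02 ± 0.05, adjusted p = 0.803), and Arl4d, a small GTPase (0.02 ± 0.12, adjusted p = 0.882). The membrane proteins Tmem184a and Flrt1 differed between the times by -0.02 ± 0.17 and -0.12 ± 0.17 (adjusted p = 0.946 and 0.574). Their 24 h calls below control were weak. That of Tmem184a was lost without 24 h replicate 1, control replicate 1 or control replicate 2 (adjusted p = 0.137, 0.0829 and 0.0729), and that of Flrt1 without any of 7 libraries, with adjusted p from 0.0502 without 48 h replicate 1 to 0.156 without control replicate 2. For these genes a p above the threshold does not show equal levels, and the 95% interval of the difference between the times ran from -0.12 to 0.09 for Ank.

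Acute-phase genes were mostly higher at 48 h than at 24 h. Of 16 tested, 10 were higher and 1 lower (26.6% and 28% of all genes), with a median of 0.65. Against control 8 were higher at 24 h and 14 at 48 h (3.25% and 22% of all genes), none lower. Hp, the haemoglobin-binding haptoglobin, went from 23.1, 24.6 and 26.5 CPM in the controls to 132, 121 and 143 CPM at 24 h and 195, 211 and 189 CPM at 48 h (0.59 ± 0.05, adjusted p = 4.75e-09). Complement C3 had 6.898, 8.41 and 8.27, 35.1, 32.8 and 38.3 and 58.8, 63.9 and 56.3 CPM (0.75 ± 0.07, adjusted p = 1.94e-09), and ceruloplasmin, Cp, rose by a further 0.71 ± 0.05 (adjusted p = 1.73e-10). Complement proteases and the serpin Serpina3n came late. C1s1 was at 57.7, 55.9 and 63.8 CPM at 24 h, not called against controls at 62.7, 64.3 and 65.1 CPM, and at 177, 186 and 175 CPM at 48 h (1.602 ± 0.05, adjusted p = 1.37e-16), and C4b (1.76) and Serpina3n (1.68) had the same order.

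Of 20 IL-6 family signalling genes, 12 were higher at 48 h than at 24 h and 3 lower (26.6% and 28% of all genes), with a median of 0.37, and 5 were progressive. Osmr, the oncostatin M receptor, had 211, 205 and 219, 257, 252 and 256 and 479, 489 and 513 CPM (0.95 ± 0.04, adjusted p = 3.44e-15). The feedback inhibitor Socs3 (0.37) and the factors Stat3 (0.36) and Cebpd (0.85) were progressive too and the shared receptor Il6st rose between the times (0.48), whereas the ligands Lif and Il11 had fallen and Il6 was not called.

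**Figure D4:**
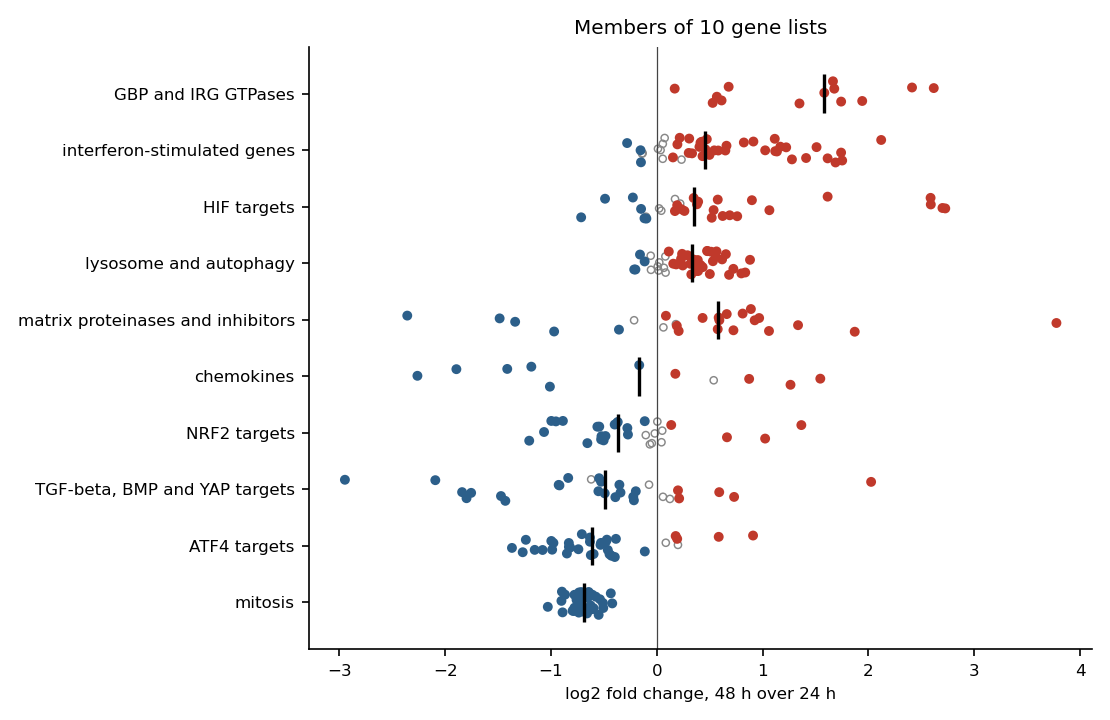
Each point is one tested gene of 10 lists, with its log2 fold change at 48 h over 24 h on the x axis. Filled points passed an adjusted p of 0.05 and black bars mark list medians. All 13 guanylate-binding and immunity-related GTPases lie above 0 (median 1.58) and all 40 mitosis genes lie below (median -0.69).

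Tnfsf11 and Mmp13, genes of bone and cartilage resorption, were progressive. Tnfsf11 was at 9.16, 8.09 and 5.94 CPM in the controls, 14.2, 13.98 and 14.4 CPM at 24 h and 30.1, 31.8 and 34.1 CPM at 48 h, a further log2 rise of 1.18 ± 0.08 (adjusted p = 3.83e-11). Its decoy receptor Tnfrsf11b was at 1.4002, 2.02 and 0.846 CPM and 1.31, 0.898 and 1.12 CPM (-0.36 ± 0.34, adjusted p = 0.3897), levels that allow no firm statement. Csf1, the macrophage growth factor that acts beside RANKL on osteoclast precursors, went the other way, from 1553, 1537 and 1609.6 CPM to 708, 698 and 719 CPM (-1.14 ± 0.03, adjusted p = 8.80e-18). The receptor Tnfrsf12a also fell (-1.45 ± 0.05). Of 16 osteoclast-regulating genes, 6 were higher and 6 lower at 48 h (26.6% and 28% of all genes), with a median of 0.28.

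Mmp13, collagenase 3, had 4.33, 2.94 and 3.83, 14.7, 12.8 and 13.04 and 28.4, 28.3 and 27.9 CPM in the controls, at 24 h and at 48 h (1.06 ± 0.08, adjusted p = 3.40e-10). The aggrecanases Adamts5 (136, 138 and 143 CPM, then 259.8, 269 and 261 CPM) and Adamts4 (0.73) and the proteoglycanase Adamts1 (98.1, 96.95 and 98.7 CPM, then 350.2, 366 and 358 CPM) rose after 24 h (adjusted p = 3.35e-14, 5.04e-07 and 2.90e-19), and without control replicate 3 Adamts5 was already called above control at 24 h (adjusted p = 0.0149). Of 25 proteinase and inhibitor genes, 17 were higher and 5 lower at 48 h than at 24 h (median 0.58, with 26.6% and 28% of all genes). Timp1 and the urokinase receptor Plaur (-1.34 ± 0.05) were among those that fell.

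Collagens and matrix genes rose in 26 of 42 cases and fell in 10 (median 0.31), beside 26.6% and 28% of all genes. Col3a1, collagen III, had 816, 776 and 817, 977, 959 and 999 and 1758, 1775 and 1734 CPM (0.85 ± 0.03, adjusted p = 3.79e-16), and decorin, Dcn (0.81), the lysyl hydroxylase Plod2 (0.67) and lysyl oxidase, Lox (0.25), were progressive as well. Fibronectin, Fn1, and thrombospondin 2, Thbs2, rose after 24 h, Fn1 from 8785, 8073 and 8908 CPM to 13694, 12926 and 14107 CPM (0.66 ± 0.03, adjusted p = 6.90e-14). Without control replicate 2 both were called below control at 24 h (adjusted p = 0.0412 and 2.25e-04). Versican, Vcan, waned (-0.54). Col1a1 was at 1099.8, 1082 and 1139 CPM and 1152, 1143 and 1179 CPM, a difference of 0.07 ± 0.03 (adjusted p = 0.0774) that was called without 24 h replicate 3 (0.09, adjusted p = 0.0328).

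Targets of hypoxia-inducible factor (HIF) rose at both times. At 24 h 19 of 31 were above control and none below (3.25% and 2.9% of all genes). Between the times 20 rose and 6 fell (median 0.35), beside 26.6% and 28% of all genes. Ndufa4l2 was at 1.38, 1.39 and 0.827, 3.33, 2.28 and 3.24 and 21.5, 17.7 and 18.2 CPM in the controls, at 24 h and at 48 h (2.70 ± 0.14, adjusted p = 3.88e-13). The mitophagy receptor Bnip3 had 94.4, 91.4 and 86.4, 133, 147 and 136 and 182, 185 and 179 CPM (0.39 ± 0.05, adjusted p = 2.20e-07). The glycolytic regulator Pfkfb3 (0.69), the oxidoreductase Ero1a (0.58) and the pyruvate dehydrogenase kinase Pdk1 (0.59) were progressive in the same way. Ndrg1 (89.4, 82.6 and 91.2 CPM, then 264, 258 and 283 CPM) and Selenbp1 (2.59 ± 0.09) moved only after 24 h by these calls. Car9 and Ndrg2 were called above control at both times, but the 24 h call of Car9 (adjusted p = 0.0272) was lost without control replicate 1 or 2 (adjusted p = 0.143 and 0.0656) and 24 h replicate 2 or 3 (adjusted p = 0.0879 and 0.0904), and that of Ndrg2 without control replicate 1 or 2 (adjusted p = 0.166 and 0.06603) 24 h replicate 1 or 2 (adjusted p = 0.0535 and 0.202) and 48 h replicate 2 (adjusted p = 0.0547). Vegfa had its rise at 24 h and then differed by -0.12 ± 0.04 (adjusted p = 0.02795), a call lost without 24 h replicate 1 (adjusted p = 0.159), 48 h replicate 1 (adjusted p = 0.0888) or 48 h replicate 2 (adjusted p = 0.0525).

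The promoter of Bnip3 is shown as that of a progressive HIF target, with the core letters ACGTG in capitals on both strands, where 2 matches overlap in one palindrome about 90 bases before the start (GRCm39, 250 bases).
Bnip3 (chr7:138511254-138511503, minus strand): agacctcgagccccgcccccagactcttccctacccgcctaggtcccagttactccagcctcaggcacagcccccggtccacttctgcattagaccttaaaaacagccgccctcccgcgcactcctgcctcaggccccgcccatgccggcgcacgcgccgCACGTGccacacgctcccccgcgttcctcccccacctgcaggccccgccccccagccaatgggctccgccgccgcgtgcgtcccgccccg
These short letters are common. They stood in 45.2% of the 31 HIF-target promoters and in 21.4% of all 11685. The share was 55.6% in the 18 circadian and 42.9% in the 21 glycolysis promoters, so it is not particular to HIF targets.

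Glycolysis genes had risen by 24 h (15 of 21 above control, none below, with 3.25% and 2.9% of all genes). They then split, 12 higher and 6 lower at 48 h than at 24 h (26.6% and 28% of all genes) with a median of 0.11. Against control 17 were above and 1 below at 48 h (22% and 24.4% of all genes). The list counts 2 identifiers with the symbol Aldoa.

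Interferon-stimulated genes were a late group. Of 45 tested, 33 were higher at 48 h than at 24 h and 3 lower (26.6% and 28% of all genes), with a median of 0.46. At 24 h against control none was above and 4 were below (3.25% and 2.9% of all genes). None above control is near the share over all genes. Rsad2, the antiviral enzyme viperin, had 6.21, 3.43 and 5.19 CPM in the controls, 3.93, 5.46 and 5.14 CPM at 24 h and 20.1, 21.97 and 21.2 CPM at 48 h (2.12 ± 0.12, adjusted p = 1.17e-12). Ifit1, which binds foreign RNA, had 85.97, 69.99 and 77.3, 73.5, 71.5 and 63.6 and 221, 231 and 221 CPM (1.69 ± 0.05, adjusted p = 5.21e-17), and without control replicate 2 it was called below control at 24 h (adjusted p = 0.0488). In both genes the 48 h libraries stood above those of 24 h, as they do in 29.4% of all genes. They also stood above the controls, and the share of all genes above both groups was not counted. The nucleic acid sensor Zbp1 (28.003, 27.9 and 23.9 CPM, then 93.9, 89.2 and 85.95 CPM) and the interferon signalling factor Stat2 (101, 93.5 and 92.1 CPM, then 217, 206 and 207 CPM) rose by 1.75 ± 0.06 and 1.14 ± 0.05 (adjusted p = 6.46e-16 and 5.39e-15). Ifit3, close in sequence to a neighbouring copy, rose by 1.62 ± 0.10 (adjusted p = 3.18e-12). Not all members took part. Irf9 (0.06) and Usp18 (0.06) were not called.

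Promoters of Rsad2 and Ifit1 are shown with the core of the interferon response element, TTTC, any 2 bases, then TTTC, on either strand in capitals (GRCm39, 250 bases before the start).
Rsad2 (chr12:26506452-26506701, minus strand): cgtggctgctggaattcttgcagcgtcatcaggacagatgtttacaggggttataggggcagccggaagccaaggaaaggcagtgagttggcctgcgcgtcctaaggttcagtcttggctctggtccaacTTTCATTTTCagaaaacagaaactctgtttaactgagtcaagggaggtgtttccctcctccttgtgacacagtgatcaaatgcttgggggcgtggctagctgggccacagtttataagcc
Ifit1 (chr19:34618021-34618270, plus strand): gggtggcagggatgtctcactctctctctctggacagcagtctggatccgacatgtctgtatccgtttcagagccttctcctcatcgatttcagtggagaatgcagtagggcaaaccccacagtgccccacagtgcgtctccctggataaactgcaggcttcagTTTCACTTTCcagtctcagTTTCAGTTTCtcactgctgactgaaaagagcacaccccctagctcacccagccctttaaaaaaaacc
Rsad2 held 1 match starting 120 bases before the start and Ifit1 held 2, at 86 and 67 bases. The letters stood in 37.8% of the 45 interferon-stimulated promoters, in 38.5% of the 13 GTPase promoters described next and in 3.08% of all 11685.

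Guanylate-binding proteins and immunity-related GTPases, which attack intracellular membranes of pathogens, rose between the times without exception, 13 of 13 tested (26.6% of all genes), with a median of 1.58. Against control 11 were above and none below at 48 h (22% and 24.4% of all genes), with a median of 1.17. At 24 h none was above control and 1 was below (3.25% and 2.9% of all genes). Gbp7 went from 31.7, 31.5 and 33.3 CPM to 81.1, 81.6 and 82.6 CPM with controls at 30.7, 27.9 and 36.1 CPM (1.35 ± 0.06, adjusted p = 4.42e-15), Gbp2 from 100.01, 111 and 109 to 158, 163 and 152 CPM (0.57 ± 0.05, adjusted p = 1.48e-09) and Gbp5 from 5.33, 5.79 and 4.58 to 16.5, 17.2 and 16.3 CPM (1.67 ± 0.12, adjusted p = 5.31e-11). Members of this family are close in sequence, so reads shared between them make single values uncertain. The class I antigen genes H2-K1 (-0.26) and H2-D1 (-0.14) and B2m (-0.15) fell slightly. Of 22 antigen presentation genes, 13 were higher and 6 lower (26.6% and 28% of all genes), with a median of 0.21. The regulator Nlrc5 (0.83) and H2-T23 (1.06) were among those higher. Against control, 1 antigen presentation gene was above and 5 were below at 24 h (3.25% and 2.9% of all genes). At 48 h 6 were above and 6 below (22% and 24.4% of all genes), with a median of -0.0071.

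Of 17 tested inflammasome and pyroptosis genes, 11 were higher and 3 lower at 48 h than at 24 h (26.6% and 28% of all genes), with a median of 0.49. None was called at 24 h against control, which is near the 6.15% called over all genes. The receptor Naip2 had 34.9, 32.9 and 33.2 CPM and 71.1, 73.4 and 74.97 CPM (1.12 ± 0.06, adjusted p = 1.70e-13) and Casp12 had 27.2, 30.6 and 26.1 CPM and 74.8, 66.3 and 71.5 CPM (1.34 ± 0.07, adjusted p = 1.61e-13). Casp4, which encodes caspase-11, the sensor of intracellular lipopolysaccharide, rose from 7.87, 10.1 and 11.8 to 19.003, 22.2 and 21.3 CPM, above controls at 6.46, 8.82 and 6.69 CPM (1.07 ± 0.12, adjusted p = 6.14e-08). It was already called above control at 24 h without 24 h replicate 1 (adjusted p = 0.0327) or control replicate 2 (adjusted p = 0.0299). Casp1 stood at 3.27, 2.601 and 2.89 CPM and then 5.54, 4.97 and 4.69 CPM (0.80 ± 0.19, adjusted p = 0.00109). Gsdmd, the pore-forming gasdermin D, was at 3.33, 4.03 and 2.89 CPM and 5.19, 4.61 and 5.12 CPM (0.54 ± 0.19, adjusted p = 0.0176), which was no longer called without 24 h replicate 3 (adjusted p = 0.0728) or 48 h replicate 1 (adjusted p = 0.0546). Txnip fell (-0.49 ± 0.05), and Nlrp3, Il1a, Il1b and Aim2 did not pass the filter on low counts.

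Sterol synthesis genes rose late by small amounts, 25 of 32 higher and 2 lower at 48 h (median 0.32), beside 26.6% and 28% of all genes. Hmgcs1, the synthase that feeds the mevalonate pathway, had 119.95, 123 and 123 CPM and 171, 179 and 174 CPM (0.52 ± 0.04, adjusted p = 1.06e-09), and the desaturase Fads1 rose by 0.66 ± 0.04. Among lipid genes, 15 of 29 rose and 4 fell (median 0.17), led by Fabp4, at 0.733, 1.11 and 0.564 CPM and 8.96, 7.84 and 8.48 CPM (adjusted p = 1.98e-11), Lpl (1.552) and the acyl-CoA dehydrogenase Acadm (1.29). Adipocyte and endothelial markers were near 0, with a summed level of at most 0.867 CPM in any library.

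Circadian genes rose in 12 of 18 cases and fell in 2 (median 0.42), beside 26.6% and 28% of all genes. Dbp, a clock output gene, went from 10.2, 8.26 and 8.598 CPM to 24.2, 20.3 and 20.8 CPM (1.27 ± 0.11, adjusted p = 9.43e-10), and without control replicate 3 it was called below control at 24 h (adjusted p = 0.00615). Per1 rose by 0.51 ± 0.08 (adjusted p = 1.33e-05), and the core activator Arntl was not called (0.02 ± 0.08, adjusted p = 0.813).

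All 40 tested mitosis genes fell between 24 h and 48 h (28% of all genes did), with a median of -0.69. None had been called at 24 h against control, which is near the 6.15% called over all genes. Ccnb1, the mitotic cyclin B1, was at 193, 192 and 201 CPM in the controls, 202, 207 and 209.9 CPM at 24 h and 111, 107 and 113 CPM at 48 h (-0.90 ± 0.04, adjusted p = 1.04e-13). Plk1, a mitotic kinase, had the largest fall of the list (-1.03 ± 0.06). Mki67 (-0.61) and Top2a (-0.64) followed, and without control replicate 3 both were called above control at 24 h (adjusted p = 7.13e-05 and 0.0123). DNA replication genes were less uniform, 23 of 40 lower and 3 higher with a median of -0.21, and Pcna was among those not called (-0.02 ± 0.04, adjusted p = 0.747). Cyclin D1, Ccnd1, which drives entry into the cycle, went from 233, 240.2 and 235 CPM to 104, 96.9 and 104 CPM (-1.21 ± 0.04, adjusted p = 8.00e-16). The list of cyclin-dependent kinase inhibitors and D cyclins had 10 of 27 tested members higher and 14 lower at 48 h (26.6% and 28% of all genes), with a median of -0.17. Against that lean the inhibitors Cdkn2a (0.64) and Cdkn1b (0.52) rose. The stress gene Gadd45a rose from 17.7, 18.7 and 15.1 to 45.9, 49.7 and 45.7 CPM (1.46 ± 0.08, adjusted p = 4.94e-13).

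Targets of ATF4, the factor that induces amino acid synthesis and transport, fell late, 28 of 34 lower and 4 higher at 48 h (28% and 26.6% of all genes) with a median of -0.61. Atf4 itself had 422, 443 and 439 CPM and 263, 255 and 260.3 CPM (-0.74 ± 0.04, adjusted p = 2.46e-13). The serine synthesis genes Psat1 (212, 211 and 205 CPM, then 108, 101 and 107 CPM) and Phgdh (172, 177 and 181 CPM, then 81.03, 70.3 and 73.3 CPM) fell by 0.99 ± 0.04 and 1.24 ± 0.05 (adjusted p = 2.84e-14 and 7.30e-15), and without control replicate 3 Phgdh was already called below control at 24 h (adjusted p = 0.0243). The mitochondrial folate enzyme Mthfd2 (-1.15), asparagine synthetase, Asns (-0.98), the amino acid carrier Slc7a5 (-1.08) and the glutathione-degrading Chac1 (-1.27) had the same direction.

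The promoter of Chac1 is shown with the ATF4-type letters TGATGNAA, here on the reverse strand, in capitals (GRCm39, 250 bases before the start).
Chac1 (chr2:119181439-119181688, plus strand): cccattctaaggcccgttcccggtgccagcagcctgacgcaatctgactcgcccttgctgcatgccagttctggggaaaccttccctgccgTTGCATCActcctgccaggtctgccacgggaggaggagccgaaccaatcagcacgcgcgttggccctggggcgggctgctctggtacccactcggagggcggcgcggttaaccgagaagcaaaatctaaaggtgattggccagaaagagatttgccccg
The match started 159 bases before the start. These letters stood in 14.7% of the 34 ATF4-target promoters and in 2% of all 11685.

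NRF2 targets of the antioxidant response also fell, 18 of 29 lower and 4 higher (median -0.37), beside 28% and 26.6% of all genes. Nqo1, a quinone reductase, had 323, 343 and 330.1, 335, 347 and 331 and 154, 140.3 and 144 CPM in the controls, at 24 h and at 48 h (-1.20 ± 0.04, adjusted p = 5.96e-16), and thioredoxin reductase, Txnrd1, fell by 1.06 ± 0.03 (adjusted p = 2.68e-17). The glutathione transferase Gsta4 was progressive, at 124, 134 and 117, 93.2, 104 and 88.9 and 49.8, 50.04 and 47.8 CPM (-0.95 ± 0.06, adjusted p = 4.21e-12), as were Smoc2, a matrix calcium-binding protein (-0.92 ± 0.05), Klhdc8a (-0.71 ± 0.15) and the GDNF receptor Gfra1 (-0.39 ± 0.11), whose 24 h call was lost without any one of the 24 h libraries or of control replicates 1 and 2 (adjusted p from 0.0518 to 0.06602). Endoplasmic reticulum chaperones had 15 of 25 lower and 3 higher (median -0.23), beside 28% and 26.6% of all genes. Hspa5, the chaperone BiP, was above control at 24 h and below it at 48 h (-0.45 ± 0.03, adjusted p = 1.07e-10). Immediate early genes had 13 of 27 lower and 6 higher (median -0.12), beside 28% and 26.6% of all genes. Myc was at 125, 133 and 130.3 CPM and 80.5, 82.8 and 81.3 CPM (-0.67 ± 0.05, adjusted p = 4.36e-11).

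**Figure D5:**
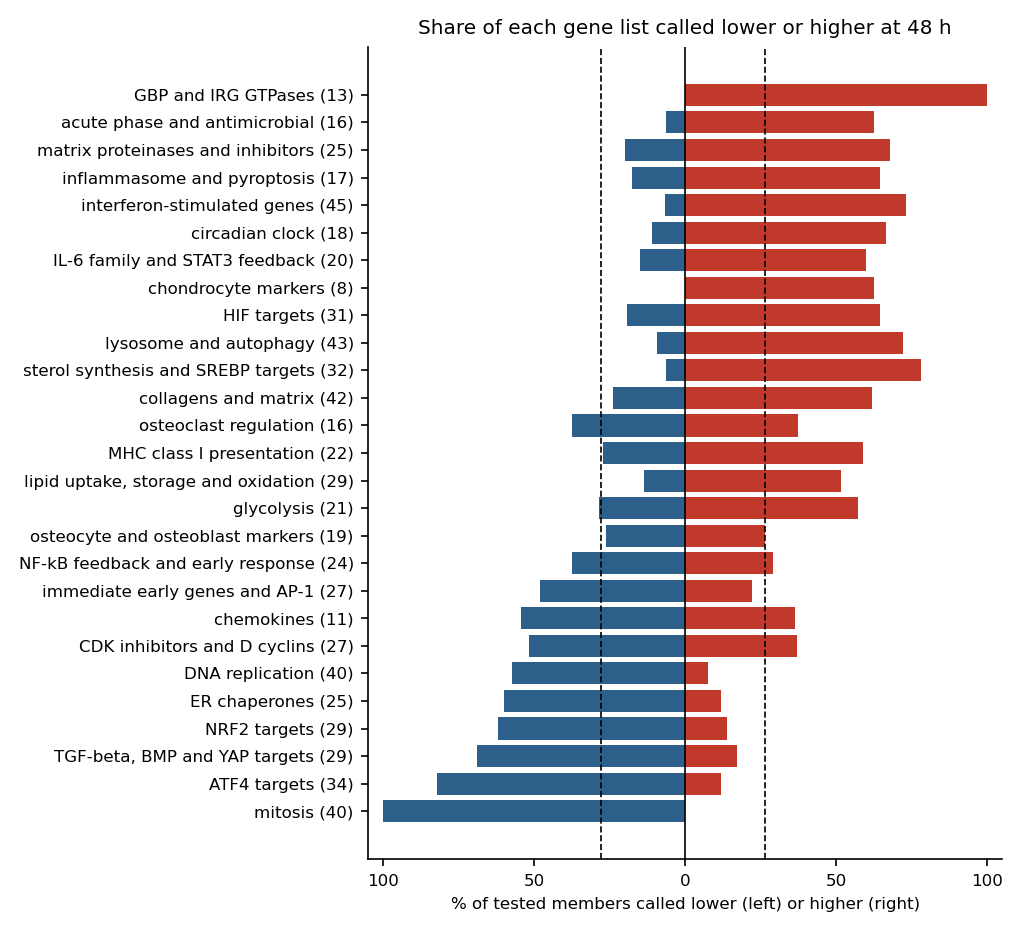
For each of 27 gene lists with at least 8 tested members, bars give the percentage of members called higher (right) and lower (left) at 48 h than at 24 h, and dashed lines give the shares over all tested genes (26.6% and 28%). The GTPases (13 of 13 higher) and the mitosis genes (40 of 40 lower) stand at the ends.

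Osteocyte and osteoblast markers showed no common direction, 5 of 19 higher and 5 lower with a median of -0.02, near the 26.6% and 28% of all genes. Gja1, connexin 43, through which osteocytes couple, rose from 1641, 1651 and 1614 to 2396, 2397 and 2438 CPM (0.56 ± 0.03, adjusted p = 8.32e-14), and Phex (0.68) rose too. Spp1, osteopontin, fell from 3983, 4224 and 4091 to 2769.6, 2742 and 2709 CPM (-0.58 ± 0.03, adjusted p = 4.98e-14), as did Cd44, its receptor (-0.69). Among 23 chondrocyte markers 8 were tested and 8 had 0 reads, and 5 of the tested were higher at 48 h, with a summed level of 1703 to 1798 CPM at 24 h and 2310 to 2378 CPM at 48 h that was mostly Prg4, lubricin (1491 ± 39.5 and 2045 ± 41.5 CPM, SD, n = 3). The defining cartilage genes Acan and Col2a1 were at or near 0 at both times. Of 19 macrophage and osteoclast markers 3 were tested, with a summed level of 25.7 to 27.3 CPM at 24 h and 21.6 to 25.1 CPM at 48 h, and their part in the results above was not tested.

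Only 1 gene in each direction met the rule of at most 3 reads in every library of one time and at least 1 CPM in every library of the other. Both were named after their values were seen. Myod1, a myogenic factor, had 27, 26 and 25 reads at 24 h and 0, 1 and 1 at 48 h, at least 9.75-fold lower against a floor of 3 reads per library. Rn7sk, the small nuclear 7SK RNA, had 3, 2 and 3 reads at 24 h and 20, 17 and 34 at 48 h, at least 6.26-fold higher. The controls had 17, 13 and 13 reads of Myod1 and 4, 1 and 8 of Rn7sk.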

How the data were processed

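RNA sequencing of MLO-Y4 cells from 9 libraries gave whole-number read counts per gene, which the authors made with HISAT2 alignment to GRCm39 and featureCounts (version 2.06 in the submitters' processing notes, another version in the extraction protocol) and deposited as 1 table. The deposited values are raw counts with no normalization, and the strand setting of the counting is not given in the sources used here.

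The 24 h and 48 h libraries were compared with edgeR 4.0.16 (R 4.3.3), using the TMM scaling, the filterByExpr filter at a minimum count of 10, and the quasi-likelihood test with Benjamini-Hochberg adjustment at 0.05. Controls entered a second fit of all 9 libraries, from which CPM and the calls against control were taken. Time classes combined those calls with the calls between the times from the first fit. Alternatives used DESeq2 1.42.0, limma 3.58.1 (voom), other scalings, filters and thresholds, a replicate block, thinning, and each library left out. Scripts were tested on simulated data.

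Named genes were the 10 highest and 10 lowest by log2 fold change among protein-coding genes with adjusted p under 0.05, a mean of at least 5 CPM and no overlap between times, the 4 leading genes of each time class, the 3 leading members of each list per direction, and a fixed set. Some genes that this rule names are not reported here. Further list members given as examples were chosen after their values were seen. The members and lists were chosen with earlier results of these data known. Genes that share reads with near-identical copies, or that overlap other genes, are uncertain. Promoters were the 250 bases before the Ensembl-canonical start in GENCODE M39 on GRCm39, where 13.7% of genes share start and end with the deposited annotation. They were searched for 8 motifs, each in every list, and only some pairs of motif and list are given.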

Additional observations from a re-analysis of the deposited data

Results flagged for a closer look

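The genes below were called on opposite sides of control at 24 h and at 48 h, and the difference between the times was tested directly by edgeR's quasi-likelihood test with Benjamini-Hochberg adjustment. Each is given with its log2 fold change at 48 h versus 24 h. The 24 h libraries and the controls enter more than 1 of these comparisons.

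Genes above control at 24 h and below it at 48 h were Ltbp2 (-2.95), Kcnk10 (-1.72), Ptgs2 (-1.70), Ramp3 (-1.64), Timp1 (-1.48), Ccn1 (-1.43), Il11 (-1.43), Ccl2 (-1.19), Id3 (-0.92), Inhba (-0.84) and Hspa5 (-0.45).

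Genes below control at 24 h and above it at 48 h were Fgl2 (2.81), Ggt5 (2.58), Hopx (2.54), Susd2 (2.47), Itih5 (2.27), Enpp2 (2.27), Ogn (2.08), Tgfb2 (2.03), Ifit3 (1.62), Gpx3 (1.37), Sesn1 (1.28), Ccl9 (1.26), Efemp1 (1.06), Gstm1 (1.02), Ctsa (0.68), Mcoln1 (0.65), Cdkn2a (0.64), Psap (0.56) and Ctsb (0.51).

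The 24 h calls of several of these genes rest on single libraries, as given beside them in the report. Those of Ctsa, Ctsb and Ifit3 were each lost when at least 1 library was left out. That of Mcoln1 was lost without 24 h replicate 1 or 3, any 48 h library or control replicate 2 (adjusted p from 0.0511 to 0.185). That of Id3 was lost without replicate 1 or 3 of 24 h or control (adjusted p from 0.0626 to 0.175). The 48 h call of Inhba was lost without 24 h replicate 2 or 3, any 48 h library, or control replicate 1 or 3 (adjusted p from 0.0602 to 0.222). In each of those fits Inhba was transient.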

How the results depend on the processing

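The counts between 48 h and 24 h kept within 1.5 times of the values reported under every other scaling, test, filter and fit run, except at an absolute log2 fold change of at least 1, which left 597 higher and 198 lower genes. With a replicate block, 7567 genes were called between the times (3679 higher, 3888 lower), of which 7389 were among the 7428 called without it, and none changed direction. Deviations of same-numbered 24 h and 48 h libraries correlated at -0.0116, 0.056 and 0.0697, so the numbers were not taken as pairs. With each library left out in turn, genes higher at 24 h than control ranged from 295 to 873 and lower from 222 to 602. The ranges by class, first higher and first lower, were transient 60 to 217 and 70 to 209, waning 31 to 58 and 7 to 21, reversed 32 to 107 and 95 to 181, sustained 67 to 234 and 26 to 97, progressive 100 to 224 and 10 to 57, late 1989 to 2309 and 2460 to 2758. DESeq2 gave 10 waning genes first lower. Without the filter on low counts 759 genes were higher at 24 h than control, and 180 transient, 127 reversed and 165 sustained genes were first higher. At an adjusted p under 0.01 the 24 h counts were 259 higher and 205 lower, and the classes held 61 and 84 transient, 24 and 4 waning, 22 and 77 reversed, 57 and 27 sustained and 87 and 7 progressive genes. The cause was not tested. Values near 0 that changed sign between the times were Ank from -0.061 to 0.015 with each library left out (0.021 with library total only), Arl4d from -0.021 to 0.080 with each library left out, Arntl from -0.041 to 0.095 with each library left out, Dgat2 from -0.10 to 0.046 with each library left out (0.030 with library total only), Irf9 from -0.0072 to 0.12 with each library left out, Pcna from -0.046 to 0.017 with each library left out (0.019 with library total only), Tmem184a from -0.18 to 0.10 with each library left out (0.022 with library total only, 0.0047 with limma-voom). None of these was called. Over 187 named genes, 2563 of 2618 alternative values between the times kept their direction and call.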
